A study of Rattus norvegicus with 32 samples.

Results

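The untreated transcriptome of C6 cells was described from the 8 Control arrays of a series of 32, which were the arrays labelled as Control at 3 h (replicates 1 to 4) and Control at 6 h (replicates 1 to 4). C6 is an established rat glioma line, grown here to confluence in DMEM with fetal bovine serum. The other 24 arrays came from the same line exposed to angiotensin II (Ang II) at 100 nM, alone or 30 min after the AT1 antagonist Losartan or the AT2 antagonist PD123319, each at 10 µM, with 4 replicates per group and time. Each array was a single-dye Agilent whole rat genome array carrying 42877 transcript spots, 30367 probes and 26583 gene names. The 4 groups of a replicate shared a slide, and the Control array lay at position 1 of every slide, so that treatment and array position cannot be told apart. The labels give replicate numbers without stating separate cultures, and p-values measure the spread between these samples, which may be technical.

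The 2 times were scanned with different settings of the scanner software, which calls a spot well above background at a multiple of 2.6 of the background error at 3 h and of 13 at 6 h, the latter with surrogate values for dim spots. Between 49.9% and 55.3% of probes were well above background on the Control arrays at 3 h and between 60.7% and 71.6% at 6 h. No difference between the times was therefore read as a difference in the cells, and levels are given within a time or as the percentile of a probe's signal among all transcript probes of its own array. Signal depends on the probe as well as on the transcript, so the order of genes by percentile describes the arrays and is not an order of RNA amounts. Saturation touched 1 transcript spot, on 1 of the 8 Control arrays. At 3 h, spots that the software did not flag as positive and significant took its error estimate in place of their intensity. On average 66.9% of probes on the Control arrays at 3 h carried that flag, and low values given for 3 h may be error estimates.

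C6 cells are widely used as a model of glial tumours. Astrocytes are known by glial fibrillary acidic protein (Gfap) and the glutamate transporters Slc1a2 and Slc1a3, oligodendrocyte precursors by the proteoglycan Cspg4, the receptor Pdgfra and the factors Sox10 and Olig2, and neural stem cells by nestin (Nes) and Sox2. Cells that face shortage of amino acids, glucose or folding capacity in the endoplasmic reticulum (ER) switch on a stress programme. The kinase Perk and its relatives raise the factor Atf4, which with C/EBP proteins drives Ddit3, Trib3 and Asns, while Atf6 drives the ER chaperones Hspa5 and Hsp90b1 through an ER stress element in their promoters.

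Promoter sequences of 6 genes show the sequence contexts of the results below. They are the 250 bases before the start of the gene, 5′ to 3′ on the strand of the gene, from RefSeq with the assembly GRCr8, at the first start listed for each symbol. Trib3 and Nupr1, stress genes among the widest between Control replicates, held a C/EBP-ATF element, with the letters TGATGNAA on either strand, shown in capitals on the opposite strand with its free base in lower case. The windows were chr3:161275534-161275783 (minus strand) for Trib3 and chr1:190645902-190646151 (minus strand) for Nupr1.
Trib3: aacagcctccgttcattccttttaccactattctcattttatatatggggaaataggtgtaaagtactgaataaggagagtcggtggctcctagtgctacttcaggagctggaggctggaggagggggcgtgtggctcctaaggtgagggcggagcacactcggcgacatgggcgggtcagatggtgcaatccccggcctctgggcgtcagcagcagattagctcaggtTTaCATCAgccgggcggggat
Nupr1: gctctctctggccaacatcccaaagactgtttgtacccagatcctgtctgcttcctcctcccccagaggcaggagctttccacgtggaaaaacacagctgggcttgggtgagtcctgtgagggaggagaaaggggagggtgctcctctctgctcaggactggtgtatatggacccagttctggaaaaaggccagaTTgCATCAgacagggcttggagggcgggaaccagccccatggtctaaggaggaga
The element started at position -21 in Trib3 and -55 in Nupr1, counted from the start of the gene. Over the 300 bases that the table holds for each gene, 250 before the start and the rest after it, 3.82% of all 27457 windows held the element on either strand. It was found in 2 of the 12 genes of the integrated stress list with a window, and in 3 of the 8 genes with a window among the 10 widest between replicates (Cox6a2, Trib3 and Nupr1).

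Hspa5 and Hsp90b1 encode chaperones of the ER lumen and held the ER stress element (CCAAT, 9 free bases, CCACG, on either strand), with its fixed bases in capitals. The windows were chr3:38452766-38453015 (plus strand) for Hspa5 and chr7:23012294-23012543 (minus strand) for Hsp90b1.
Hspa5: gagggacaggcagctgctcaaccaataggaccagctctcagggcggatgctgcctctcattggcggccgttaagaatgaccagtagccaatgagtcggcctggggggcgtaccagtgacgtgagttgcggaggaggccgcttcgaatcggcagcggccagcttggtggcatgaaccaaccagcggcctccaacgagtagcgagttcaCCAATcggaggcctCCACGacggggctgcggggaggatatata
Hsp90b1: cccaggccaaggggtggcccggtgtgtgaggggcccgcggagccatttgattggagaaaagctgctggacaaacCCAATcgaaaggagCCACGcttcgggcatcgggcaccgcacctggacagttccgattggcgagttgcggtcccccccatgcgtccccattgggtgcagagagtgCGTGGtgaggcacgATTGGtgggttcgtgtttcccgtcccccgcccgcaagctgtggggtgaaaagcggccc
Hspa5 held 1 copy in this window and Hsp90b1 held 2. The element was found in 5 of the 10 ER chaperone genes with a window (Hspa5, Hsp90b1, Calr, Dnajc3 and Creld2) and in 21 of all 27457 windows, or 0.0765%. These motifs were chosen after the levels of the genes had been seen, and a match of letters is a description of the window.

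The last pair sets a gene with very high signal beside a gene that was not detected, with each CpG in capitals. Rpl41, a ribosomal protein gene, had the highest median percentile in Control among genes with a current symbol. Its window was chr7:1563498-1563747 (minus strand). Agtr2 encodes the AT2 receptor of Ang II, was well above background on none of the 8 arrays, and its window was chrX:116914070-116914319 (plus strand).
Rpl41: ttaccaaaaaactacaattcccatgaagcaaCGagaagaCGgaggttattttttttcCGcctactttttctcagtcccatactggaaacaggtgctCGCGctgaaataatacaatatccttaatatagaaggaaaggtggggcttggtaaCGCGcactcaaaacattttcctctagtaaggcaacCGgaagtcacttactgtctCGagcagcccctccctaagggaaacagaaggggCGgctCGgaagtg
Agtr2: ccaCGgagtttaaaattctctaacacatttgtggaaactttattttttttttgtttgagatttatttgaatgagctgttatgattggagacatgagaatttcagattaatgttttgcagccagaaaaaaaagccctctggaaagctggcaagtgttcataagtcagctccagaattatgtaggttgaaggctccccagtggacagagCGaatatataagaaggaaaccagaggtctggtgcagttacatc
The window of Rpl41 held 11 CpG and that of Agtr2 held 2. Across the genes with a window, again over 300 bases, the median ratio of observed to expected CpG was 0.789 in the 7530 genes expressed in Control, 0.422 in the 3460 intermediate genes and 0.298 in the 3269 genes not detected, against 0.417 over all windows. The share of windows with a ratio over 0.6 was 76.1%, 37.1% and 23.6% in the same order. Genes not detected more often held the TATA box letters TATAAA on either strand, at 19.6%, against 14.4% of intermediate and 7.07% of expressed genes. These shares are a description, without a test.

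A gene was counted as expressed where at least 1 of its probes was well above background on every Control array that gave it a value, as not detected where no probe was on any, and as intermediate otherwise. A probe could lack a value, its spots being flagged as outliers, on up to 2 of the 8 arrays, or on 1 of the 4 where a time was counted alone. With no missing array allowed, 12620 genes were expressed. Of 26582 genes that could be classed, 12847 were expressed (48.3%), 7137 were intermediate (26.9%) and 6598 were not detected (24.8%). Within the 4 arrays at 3 h 12842 genes were expressed, and within those at 6 h 15775. The 2 separate sets shared 12825 genes. A further 676 genes were detected on no array at 3 h and on all 4 at 6 h, where the definition of the flag differed. Probes of a gene did not always give the same call: in 205 of 3428 genes with several probes, 1 probe was well above background on every array with a value and another on none.

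Housekeeping functions filled the top of the range. All 48 Rpl and all 30 Rps genes of the ribosome were expressed, as were all 35 Nduf genes of respiratory complex I and 37 of 38 Psm genes of the proteasome. Tissue-restricted families stood at the other end, with 32 of 1163 Olr odorant receptor genes (2.75%), 4 of 69 Vom vomeronasal receptor genes and 1 of 43 Krt keratin genes (Krt25) expressed. Of the Hox genes, which mark position along the body axis behind the forebrain, 8 of 30 were expressed (Hoxa2, Hoxa5, Hoxa9, Hoxa10, Hoxa13, Hoxb5, Hoxb6 and Hoxc4). The share over all genes was 48.3%, which is the base for the counts of expressed list members below.

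Genes were ranked by signal only where the gene name matched a current symbol, which held for 9052 of the 12847 expressed genes. Of these, the 20 with the highest median percentile were Rpl41, Rplp0, RGD1562758, Rps10, Rplp2, Rps18, Rps12, Stfa2, Rps3a, Rpl11, Rpl34, RGD1559682, Ftl, Rpl23, Rpl4, Fth1, S100a4, Rpl19, Rpl26 and Rpl13a. Ribosomal proteins made up 14 of these 20 and 58 of the top 100 in the same ranking. Ftl and Fth1 are the chains of ferritin, which stores iron, and S100a4 is a calcium-binding protein known from motile cells. RGD1562758 and RGD1559682 carry the current symbols Gapdh-ps118 and Ppial4g, near-identical copies of Gapdh and of the Ppia family, and their signal cannot be told apart from that of the parent genes. The probes of the 78 ribosomal protein genes gave between 10.8% and 14.2% of the summed signal of a Control array. Expressed genes had a median percentile of 76.1, with the 5th percentile of genes at 54.1 and the 95th at 97.6, and the median of genes not detected was 16.8.

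**Figure D1:**
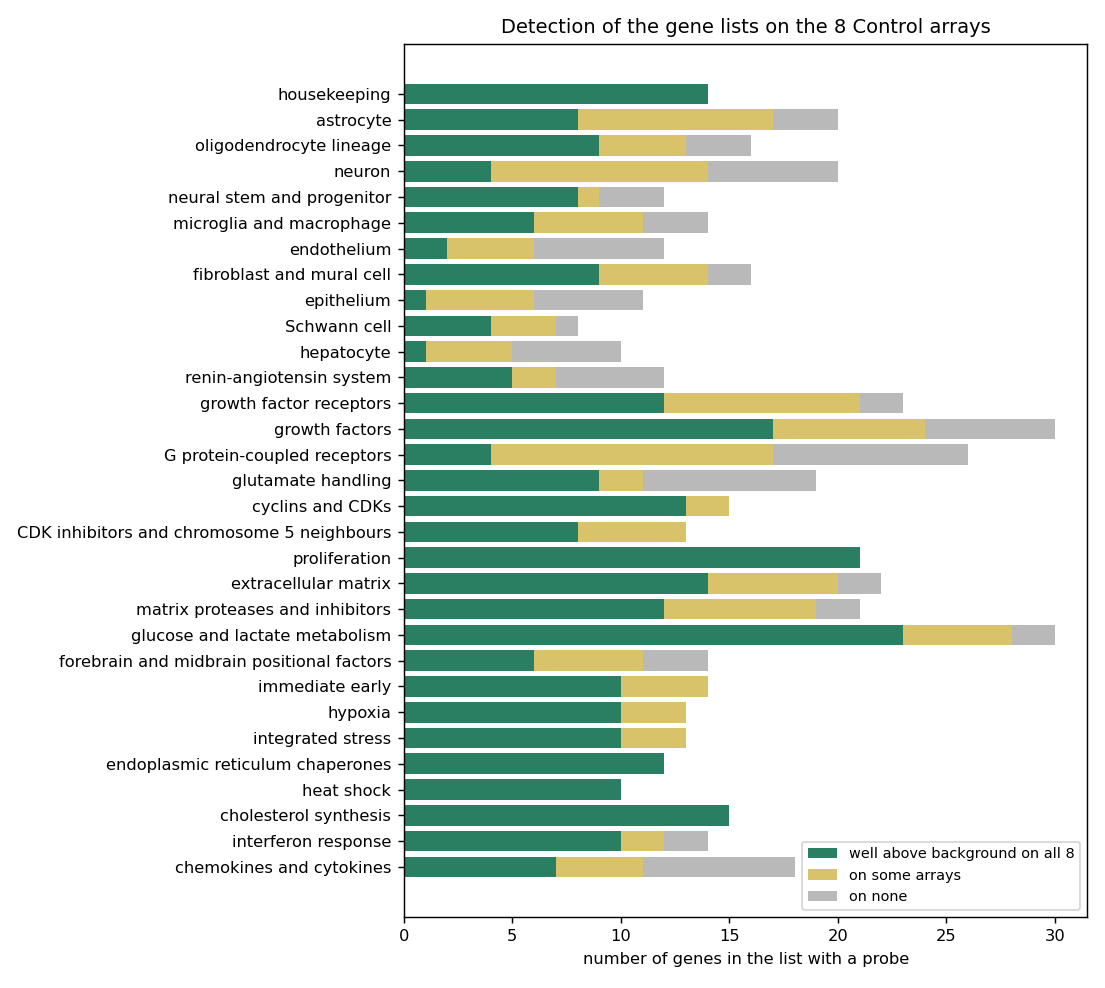
Number of genes (x axis) of each gene list (y axis) that were expressed, intermediate or not detected on the 8 Control arrays, as stacked bars. The proliferation, ER chaperone, heat shock and cholesterol synthesis bars are expressed throughout, whereas 2 of 12 endothelial and 1 of 11 epithelial genes were expressed.

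Astrocyte markers were split. Of 20 genes, 8 were expressed (S100b, Vim, Gja1, Glul, Sox9, Aldoc, Clu and Apoe), 9 were intermediate and 3 were not detected (Slc1a2, Slc1a3 and Fabp7), a share of 40% against 48.3% over all genes. Gfap, the intermediate filament that defines mature astrocytes, was well above background on 0 of 4 Control arrays at 3 h and 1 of 4 at 6 h. Its log2 signal was 0.89, 1.73, 1.41 and 1.06 at 3 h and 2.74, 1.82, 1.66 and 1.24 at 6 h. It exceeded the 95th percentile of the negative control spots on 5 of the 8 arrays. S100b, a calcium-binding protein of glia, had a mean log2 signal of 10.21 ± 0.31 (SD, n = 4) at 3 h and 10.24 ± 0.74 (SD, n = 4) at 6 h, from 1 of its 2 probes, while the other was detected on no array. The defining transporters Slc1a2 and Slc1a3 were thus not detected and Gfap was on 1 array, and the label glioma was kept as the name of the line.

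Oligodendrocyte lineage markers included early and myelin genes. Of 16 genes 9 were expressed, or 56.2% against 48.3% over all genes, with the myelin genes Mag, Cnp and Mobp among them. Another Mag probe was detected on no array. Of the early genes, Cspg4 stood at a median percentile of 92.6, Sox10 at 89.1, Pdgfra at 86.8, the homeobox factor Nkx2-2 at 68.1 and Olig1 at 54.7. Olig2, myelin basic protein (Mbp) and Ugt8, which makes myelin galactolipids, were detected on no array. Cspg4 had a log2 signal of 11.04, 11.70, 11.71 and 12.10 at 3 h and 11.46, 11.89, 12.16 and 12.02 at 6 h. Pdgfra, the receptor for PDGF-A on glial precursors, stood at 10.43, 10.43, 9.94 and 10.40 at 3 h and 10.55, 10.57, 10.33 and 10.52 at 6 h. Both were well above background throughout, and replicate 3 at 3 h was the lowest Pdgfra value.

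Of the neural stem and progenitor list 8 of 12 genes were expressed, among them the galectin Lgals1 at the 99.6th percentile, Nes at 90.0 and Sox2 at 85.3, while Pax6, the RNA-binding protein Msi1 and the Notch target Hes5 were not detected. Sox2, a factor of neural stem cells, had a log2 signal of 10.72, 9.56, 9.21 and 10.24 at 3 h and 11.37, 10.16, 11.43 and 10.56 at 6 h. Replicates differed for this gene, with the highest value in replicate 1 at 3 h and in replicates 1 and 3 at 6 h. Of 20 neuronal genes 4 were expressed (Tubb3, Map2, Snap25 and Eno2), and the neuronal vesicular glutamate transporter Slc17a7 and the GABA-making enzyme Gad2 were not detected.

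Markers of other cell types were also counted, and the share expressed was 42.9% for microglia, 50% for Schwann cells and 56.2% for fibroblasts and mural cells, near the 48.3% over all genes, and 16.7%, 10% and 9.09% for endothelium, hepatocytes and epithelium. Microglial and macrophage genes were expressed in 6 of 14 cases (Aif1, Cd68, Itgam, Cx3cr1, C1qb and Cd14), led by the lipopolysaccharide co-receptor Cd14 at the 85.8th percentile. The pan-leukocyte gene Ptprc was on no array. The complement genes were split, with C1qb expressed and C1qa and C1qc on no array. Aif1 and Itgam were expressed by 1 probe each and absent by another. Endothelial genes were expressed in 2 of 12 cases, with Pecam1, Tek, Tie1 and Cldn5 not detected, and hepatocyte genes in 1 of 10. Fibroblast and mural genes were expressed in 9 of 16 cases, including fibronectin (Fn1) at 86.7, Pdgfrb at 78.0 and Tagln at 77.0, with the matrix genes Dcn and Postn not detected. Of 11 epithelial genes only Epcam, an adhesion molecule, was expressed, at 74.3, and of 8 Schwann cell genes 4 were. In a bulk sample, a few cells of a type and little RNA in each cell cannot be told apart.

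**Figure D2:**
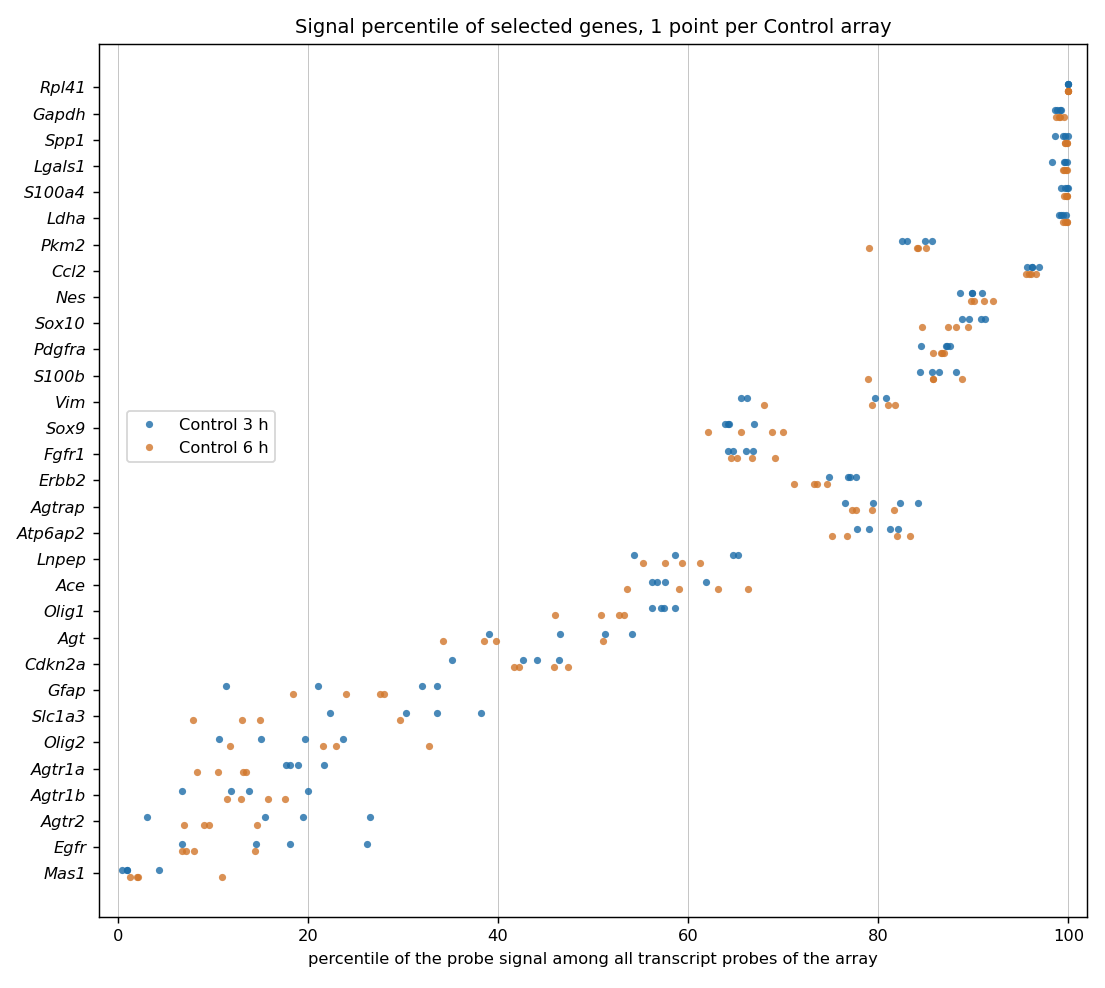
Signal percentile (x axis, from 0 to 100 within each array) of selected genes (y axis) in Control, with 1 point per array and the time marked by colour. Lgals1 and Spp1 lie near the top and the Ang II receptor genes near the bottom on all arrays.

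The renin-angiotensin system was examined because the series asks how C6 cells respond to Ang II. Genes expressed on all 8 arrays included the prorenin receptor Atp6ap2 at the 80.1st percentile, the AT1-binding protein Agtrap at 79.4, the angiotensin IV receptor Lnpep at 59.0 and the converting enzyme Ace at 58.3. Angiotensinogen (Agt) and the aminopeptidase Enpep were well above background on 2 of 4 arrays at each time. The receptor genes Agtr1a, Agtr1b, Agtr2 and Mas1 were well above background on none of the 8 arrays. Atp6ap2 had a log2 signal of 8.78, 9.31, 9.52 and 8.97 at 3 h and 8.91, 9.97, 8.69 and 9.74 at 6 h. Agtr1a stood at 1.00, 1.00, 1.02 and 1.02 at 3 h and at 0.66, 0.95, 1.09 and 1.13 at 6 h. Agtr2 stood at 0.85, 1.02, 1.11 and 1.00 at 3 h and at 0.65, 0.91, 1.10 and 1.02 at 6 h. These are values at the floor of the array, which bound the signal of these probes. They do not show that the receptor transcripts or the receptor protein were lacking. The paper reports expression of both Ang II receptor subtypes measured by quantitative PCR. Above the 95th percentile of the negative control spots, a rule applied alike at both times, Agtr1a and Agtr2 were found on 0 arrays and Agtr1b on 1.

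Growth factors and their receptors were detected as follows. Of 23 receptor genes with a probe 12 were expressed, or 52.2% against 48.3% over all genes. The mannose 6-phosphate and IGF-2 receptor Igf2r stood at the 95.4th percentile and Erbb2 at 74.7, while another Erbb2 probe was on no array. The EGF receptor genes Egfr and Erbb4 were on no array. Egfr had log2 signals of 1.11, 1.00, 0.93 and 0.99 at 3 h and of 0.66, 0.82, 0.97 and 1.16 at 6 h, all at the floor. Of 30 ligand genes 17 were expressed, or 56.7%, with the matrix-associated factor Ctgf at 93.1, Pdgfa at 90.9, Vegfc at 83.1 and Vegfa at 82.8. Pdgfa and its receptor gene Pdgfra were both detected on all 8 arrays.

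Vegfa, the main angiogenic factor, was detected on all 8 arrays with wide spread, at 7.51, 10.01, 12.16 and 10.06 at 3 h and 7.83, 10.21, 8.24 and 10.04 at 6 h. Replicate 3 at 3 h had the highest value. Among G protein-coupled receptors 4 of 26 were expressed (Adora2b, Bdkrb2, S1pr2 and Lpar1), or 15.4% against 48.3% over all genes, and 9 were on no array. Of 19 genes that handle glutamate 9 were expressed, or 47.4%. The mitochondrial enzyme Glud1 stood at 95.7, the glutamine carrier Slc1a5 at 90.2 and the cystine carrier Slc7a11 at 90.0.

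Genes of cell division were expressed almost throughout. All 21 measured genes of the proliferation list were expressed, with a median percentile of 84.5, and 13 of 15 cyclin and CDK genes, including Ccnd1 at 94.0 and Cdk4 at 92.6. Of 13 CDK inhibitor genes and neighbours on chromosome 5, 8 were expressed, and the inhibitor Cdkn1a (p21) stood at 93.2. On rat chromosome 5 (rn4 coordinates of the array annotation) Cdkn2a, which encodes the inhibitor p16 and the p53 stabiliser Arf, has its probe at chr5:108910777-108910836 and was well above background on 0 of 4 arrays at 3 h and 4 of 4 at 6 h. Its log2 signal was 2.37, 3.26, 3.63 and 3.80 at 3 h and 4.39, 4.59, 3.95 and 3.97 at 6 h, low on every array. By the negative control rule, applied alike at both times, the Cdkn2a probe was found on all 8 Control arrays. This rule is loose: on average 73.4% of probes passed it on the Control arrays at 3 h and 78.7% at 6 h. By it the Dmrta1 probe was found on 7 arrays, the Ifnb1 probe on 5 and the Cdkn2b probes on 2 and 3. The neighbour Cdkn2b was well above background on at most 1 of the 8 arrays by either of its 2 probes, whereas Mtap, on the other side of Cdkn2a at chr5:108801590-108805158, was on all 8.

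Expressed genes of the extracellular matrix list had a median percentile of 89.9, and those of the protease and inhibitor list 69.85, against 76.1 over all expressed genes. Of 22 extracellular matrix genes 14 were expressed, or 63.6% against 48.3% over all genes. Osteopontin (Spp1) stood at the 99.7th percentile, Sparc at 97.0 and the collagen Col6a2 at 96.6. Of 21 proteases and inhibitors 12 were expressed, or 57.1%. Timp2 stood at 97.6, the thrombin and plasminogen activator inhibitor Serpine2 at 96.5 and the membrane protease Mmp14 at 87.7, with Mmp9 and Plau on no array. Spp1 had a log2 signal of 16.49, 16.11, 15.18 and 15.84 at 3 h and 15.81, 15.89, 15.98 and 15.77 at 6 h. Timp2 varied less, with an SD of 0.17 at 3 h and 0.14 at 6 h over 4 arrays each.

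Glucose and lactate metabolism had 23 of 30 genes expressed, with Pgam1 and Ldha at the 99.6th percentile and Pgk1 at 99.3. Ldha, which makes lactate from pyruvate, stood at 16.12, 15.65, 15.54 and 15.86 at 3 h and 15.82, 15.60, 15.85 and 15.82 at 6 h. The carrier Slc2a1 (Glut1) varied more, at 8.72, 10.92, 11.34 and 10.84 at 3 h and 8.70, 10.95, 9.71 and 10.55 at 6 h, with replicate 1 the lowest at both times. Of the cholesterol synthesis list all 15 genes were expressed. Of the chemokines and cytokines 7 of 18 were expressed, or 38.9% against 48.3% over all genes, led by Ccl2 at 96.1, with Tnf and Il1b on no array. All 14 housekeeping, 12 ER chaperone and 10 heat shock genes with a probe were expressed, and 10 of 13 integrated stress genes. Immediate early genes were expressed in 10 of 14 cases, hypoxia genes in 10 of 13 and interferon response genes in 10 of 14.

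Positional transcription factors were split. Of 14 genes 6 were expressed, or 42.9% against 48.3% over all genes, and the forebrain factors Otx2, Six3 and Nkx2-1 were intermediate. The expressed genes included Otx1 at the 81.4th percentile, Lhx2 at 77.0 and Emx2 at 75.3. The midbrain and hindbrain genes En1, En2 and Gbx2 were on no array, while Pax2 and Lmx1b of the same list were intermediate. Otx1, a homeobox factor of the embryonic forebrain, had a log2 signal of 9.12, 8.18, 9.21 and 9.76 at 3 h and 10.57, 9.68, 9.74 and 9.62 at 6 h. Replicate 2 was the lowest at 3 h and replicate 1 the highest at 6 h, with an SD of 0.65 and 0.45.

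Replicates of untreated cells were alike for most genes and far apart for a few. Over the 12847 expressed genes the median SD between the 4 arrays was 0.33 log2 units at 3 h and 0.27 at 6 h. The SD exceeded 1 in 601 genes at 3 h and in 228 at 6 h. Correlations of log2 signal over genes between pairs of Control arrays ranged from 0.938 to 0.984 at 3 h and from 0.965 to 0.990 at 6 h, across genes, which are not independent replicates. Among genes with a current symbol, those with the largest smaller SD of the 2 times were Cox6a2, Ddit3, Ifi27l2b, Trib3, Il17re, Slc7a11, Gzmc, Scd1, Sdf2l1 and Nupr1.

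Stress genes accounted for many of these. Ddit3, which encodes the stress factor Chop, had a log2 signal of 10.25, 15.13, 15.03 and 15.02 at 3 h and 10.21, 15.03, 10.42 and 14.87 at 6 h. Trib3, a pseudokinase induced by Atf4 and Chop, stood at 6.62, 11.58, 11.99 and 11.95 at 3 h and at 7.59, 12.43, 9.39 and 12.02 at 6 h. Nupr1 stood at 8.51, 12.27, 11.96 and 12.25 at 3 h and at 8.56, 12.19, 9.51 and 12.14 at 6 h. Replicate 1 was the low array at 3 h, and replicates 1 and 3 were low at 6 h.

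Hspa5, the ER chaperone BiP, followed the same order, at 13.18, 15.82, 15.94 and 15.35 at 3 h and at 13.28, 15.90, 13.40 and 15.59 at 6 h. Sdf2l1, a partner of ER chaperones, stood at 9.83, 13.54, 13.71 and 13.44 at 3 h and at 9.88, 13.52, 9.76 and 13.43 at 6 h. The low and the high arrays of these genes were separated by more than 2 log2 units within each time, with no value in between. Cox6a2, a subunit of cytochrome oxidase known from muscle, was at 7.16, 11.49, 12.80 and 11.42 at 3 h and at 7.47, 11.60, 5.49 and 11.33 at 6 h.

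**Figure D3:**
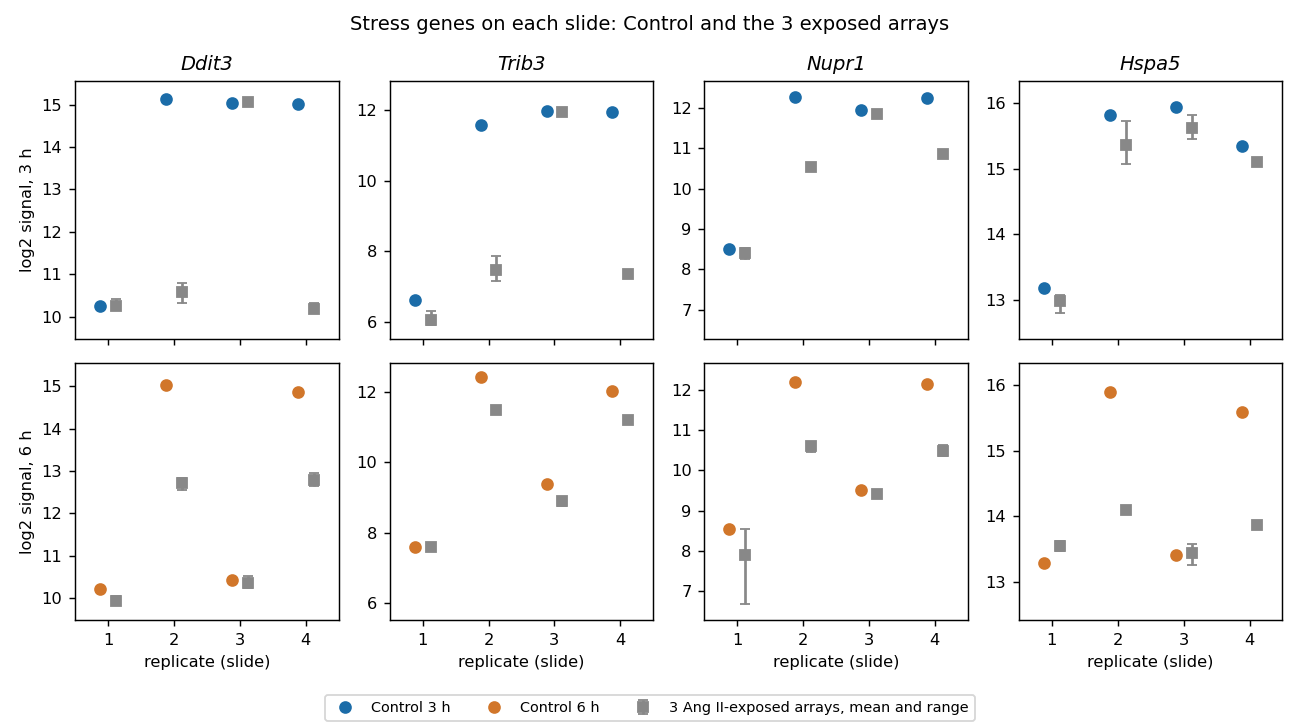
Log2 signal (y axis) of stress genes on each slide (x axis, replicate 1 to 4) at 3 h and 6 h, with the Control array and the 3 Ang II-exposed arrays of the same slide drawn separately. For Ddit3 the Control array lies far above the exposed arrays on slides 2 and 4 at both times and close to them on slides 1 and 3.

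Whole lists moved with the replicate. For each list the median over its expressed genes of the deviation from the mean of the 4 Control arrays was taken. The integrated stress list (10 genes) lay at -1.83, 0.75, 0.47 and 0.58 log2 units on replicates 1 to 4 at 3 h and at -1.23, 0.96, -0.48 and 0.80 at 6 h. The ER chaperone list (12 genes) lay at -1.82, 0.74, 0.52 and 0.65 at 3 h, where all 12 genes were lowest in replicate 1, and at -1.35, 1.36, -1.32 and 1.28 at 6 h. Over all expressed genes the same median stayed between -0.03 and 0.03.

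Lipid and cell cycle genes had orders of their own. The cholesterol synthesis list (15 genes) lay at -0.76, 0.46, -0.05 and 0.46 at 3 h and at -1.12, 0.07, 0.81 and 0.19 at 6 h, lowest in replicate 1 both times. Scd1, a desaturase of fatty acid synthesis, stood at 5.40, 9.78, 8.80 and 9.62 at 3 h and at 5.88, 9.79, 9.83 and 9.82 at 6 h. Insig1, which retains the sterol sensor in the ER, stood at 7.94, 10.69, 10.31 and 9.99 at 3 h and at 8.26, 11.20, 11.16 and 11.01 at 6 h. For these 2 genes replicate 3 at 6 h was among the high arrays, unlike for the stress genes.

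The proliferation list (21 genes) lay at 1.32, 0.00, -1.65 and 0.23 at 3 h, where 20 of 21 genes were highest in replicate 1, and at 0.58, -0.72, 0.50 and -0.41 at 6 h. Ccnb1, the mitotic cyclin, stood at 11.53, 10.03, 7.88 and 9.95 at 3 h and at 11.52, 10.27, 11.48 and 10.55 at 6 h. Rrm2, the subunit of ribonucleotide reductase that cycles with S phase, spread from 5.92 in replicate 3 to 12.43 in replicate 1 at 3 h. Arrays with low stress gene signal were thus those with high proliferation gene signal at both times, among 4 arrays each, which is a description and carries no test. The median over the 14 housekeeping genes stayed within 0.24 log2 units of the mean on every Control array, while their median SD was 0.32 at 3 h and 0.18 at 6 h.

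**Figure D4:**
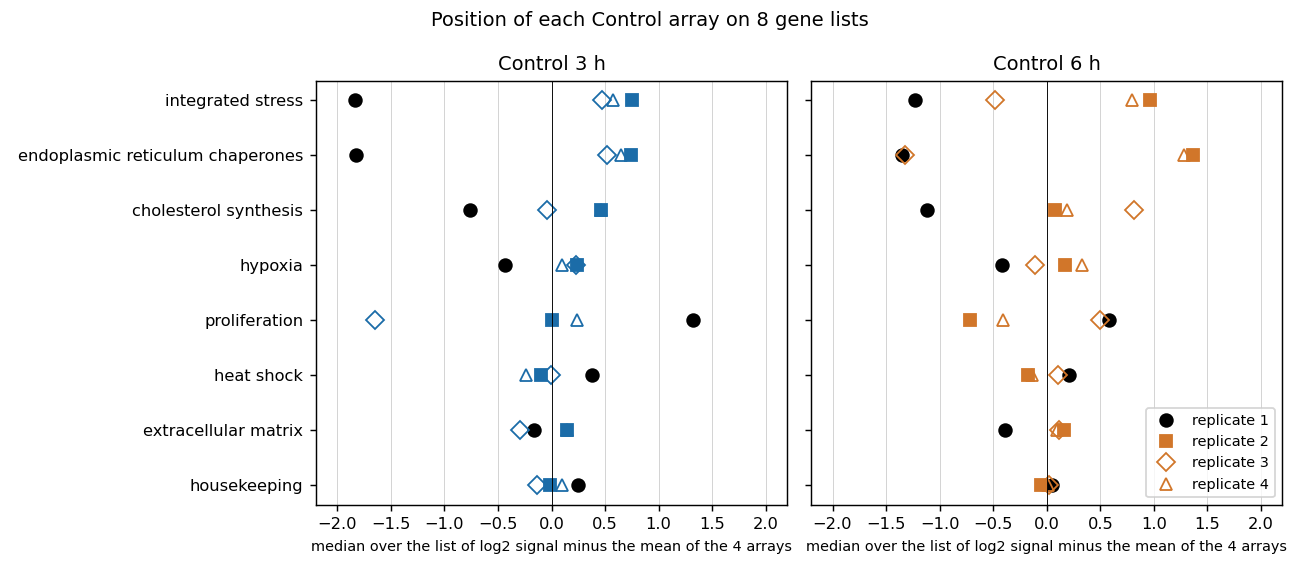
Median over each gene list of log2 signal minus the mean of the 4 Control arrays (x axis) for 8 lists (y axis), with 1 marker per replicate and a panel per time. The ER chaperone list spans from -1.82 to 0.74 at 3 h and from -1.35 to 1.36 at 6 h, while the housekeeping list stays near 0.

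The arrays of a time were scanned on 2 occasions, with replicates 1 and 2 apart from 3 and 4 at 3 h, and replicates 1 to 3 apart from 4 at 6 h. Within a scan occasion Ddit3 was at 10.25 in replicate 1 and 15.13 in replicate 2 at 3 h, and at 10.21 in replicate 1, 15.03 in replicate 2 and 10.42 in replicate 3 at 6 h. At 3 h the mean Ddit3 signal of the 3 exposed arrays was 10.26, 10.59, 15.06 and 10.18 on slides 1 to 4, so that slide 3 was high in all 4 groups. At 6 h it was 9.93, 12.73, 10.35 and 12.79. The part of culture, RNA preparation and slide in these differences was not tested.

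Control was then set against the mean of the 3 Ang II-exposed groups with limma and the slide as a block, to see where the untreated cells differed from the rest of the series. At 3 h no gene passed an adjusted p of 0.05 among 13630 tested, a share of 0% in either direction, and the smallest adjusted p was 0.205. Without adjustment 1117 genes were higher in Control (8.2%) and 1035 lower (7.59%). At 6 h 702 of 16448 genes were higher in Control (4.27%) and 678 lower (4.12%) at an adjusted p under 0.05, against 14.8% and 14.1% without adjustment. The median size of the called differences was 0.34 log2 units, and 12 called genes exceeded 1. A rule asked for an unadjusted p under 0.05, 1 direction on all 4 slides, signal well above background on all 16 arrays and a current symbol. Of the genes meeting this rule at both times, 174 had the same direction, 93 higher and 81 lower, and 14 had opposite directions.

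The calls at 6 h depended on slides 2 and 4. Without replicate 2 or without replicate 4 no gene was called, 686 were called without replicate 1 and 1968 without replicate 3, and no gene was called without the replicate block. On slides 2 and 4 the Control array differed from its exposed arrays by 2.30 and 2.08 log2 units for Ddit3, against 0.28 and 0.08 on slides 1 and 3. At 3 h the same gene differed by 4.54 on slide 2 and 4.84 on slide 4, and by -0.01 and -0.03 on slides 1 and 3. The median CV of spike-in probes, set between the groups after the data had been seen, was higher on the Control array than on the exposed arrays of its slide on 4 of 4 slides at 3 h, at 11.8% against 7.82% (exact permutation within slides, two-sided p = 0.0039, the smallest of 256 arrangements, adjusted p = 0.0547 over 14 relations), and was 6.68% against 5.50% at 6 h (exact p = 0.106). Its part in the differences was not tested.

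The share of probes well above background did not separate the groups. It was 52.9% in Control and 54.3% in the exposed groups at 3 h, a difference of -1.34 percentage points (exact permutation within slides, two-sided p = 0.344), and 65.3% against 66.2% at 6 h, a difference of -0.83 points (exact p = 0.414).

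Stress genes were among the largest differences on the higher side in Control. At 3 h the Control mean of Trib3 was 10.53 ± 2.62 (SD, n = 4) and lay 2.33 ± 0.60 (SE) log2 units above the exposed mean, and Ppp1r15a, which restarts translation after stress, lay 1.34 ± 0.34 above it, both with an adjusted p of 0.205 in limma. The other genes named on the higher side at 3 h were Nfxl1, Hps1 and Dusp8, and those on the lower side were Ppp1r3c, Cttn, Npap60, RGD1309534 and Apln, all at an adjusted p of 0.205 or above. On slides 1 to 4 the Trib3 difference at 3 h was 0.56, 4.12, 0.03 and 4.60. At 6 h Ddit3 was higher by 1.18 ± 0.31 (adjusted p = 0.0398, limma), Trib3 by 0.56 ± 0.12 (adjusted p = 0.0271), Asns, the asparagine synthetase, by 0.43 ± 0.12 (adjusted p = 0.0482) and Phgdh, the first enzyme of serine synthesis, by 0.40 ± 0.09 (adjusted p = 0.0268). Nupr1 lay 1.00 ± 0.30 above the exposed mean with an adjusted p of 0.0603 in limma.

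Counted over lists at 6 h, 4 of 11 integrated stress genes tested were higher after adjustment and none lower, against 4.27% higher over all genes. Without adjustment 10 were higher, against 14.8% over all genes, with a median difference of 0.43 against 0.00161 over all genes. Of 12 ER chaperone genes none passed the adjustment in limma, 11 were higher without it, and the median difference was 0.69. At 3 h none of either list passed, with 7 of 11 and 5 of 12 higher without adjustment, against 8.2% over all genes at 3 h. Both lists held genes whose Control level differed most between replicates, and the larger list differences lay on slides 2 and 4. The median integrated stress difference on slides 1 to 4 was -0.01, 1.78, 0.00 and 1.76 at 3 h and -0.04, 0.68, 0.18 and 0.77 at 6 h. Slide 3 at 3 h was high in Control and in the exposed groups alike.

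Heat shock, cell cycle and sterol genes included members that were lower in Control at 6 h. Hsph1, a co-chaperone of the Hsp110 family, differed by -0.98 ± 0.15 log2 units, Control minus exposed, and was lower in Control on 4 of 4 slides (adjusted p = 0.0139, limma). Of the heat shock list 3 of 10 genes were lower after adjustment, namely Hsph1, Hspa8 and Dnaja1, with a list median of -0.19. On slide 3 Hspa8 was higher in Control, by 0.04. Over all genes tested 4.12% were lower after adjustment and 14.1% without it. Of the proliferation list 3 of 21 were lower (Mcm4, Aurkb and Cdc20), and 14 without adjustment, with a median of -0.21. Of the cholesterol synthesis list 3 of 15 were lower, among them Hmgcs1 and Insig1, with a median of -0.16. The larger list differences lay on slides 2 and 4. On slides 1 to 4 the median heat shock difference was 0.04, -0.44, -0.01 and -0.29. It was -0.12, -0.40, -0.01 and -0.30 for proliferation and -0.09, -0.36, 0.08 and -0.40 for cholesterol synthesis. Insig1 differed by -0.43 ± 0.07 (adjusted p = 0.0139, limma) and was lower in Control on 4 of 4 slides.

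Several signalling genes were higher in Control at 6 h. Inhba, a subunit of activin, was higher by 0.60 ± 0.10 at 6 h (adjusted p = 0.0139, limma), where the value at 3 h was 0.69 ± 0.24 (adjusted p = 0.244, limma). The growth factor genes Gdnf, Tgfb2 and Ctgf were among those that passed the adjustment, and Tgfb2 was higher by 0.85 ± 0.20 (adjusted p = 0.0342, limma). Of the genes with the largest differences in 1 direction at both times, Nupr1, Inhba, Mfsd6, Nfxl1, Gmppb, Slc4a7, Creb3l1, Tekt4 and Fat4 lay above and Ubac1 below the exposed mean. Of these 10, Nupr1 and Fat4 missed the adjusted threshold at 6 h (adjusted p = 0.0603 and 0.0795, limma). The lower side at 6 h was led by Hsph1, Arntl2, Map2k6, Morc4 and Stil, which all passed, and the odorant receptor gene Olr7 and RGD1564983 passed on the higher side. Fsip1 had the largest difference among those named at 6 h, 1.27 ± 0.51, but its adjusted p was 0.125 in limma and slide 2 alone gave 4.23. No gene of the renin-angiotensin list passed the adjustment in limma. Without it 1 of 5 was higher at 3 h, against 8.2% over all genes, and 0 of 6 at 6 h, against 14.8%. So few genes do not set the list apart from all genes.

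**Figure D5:**
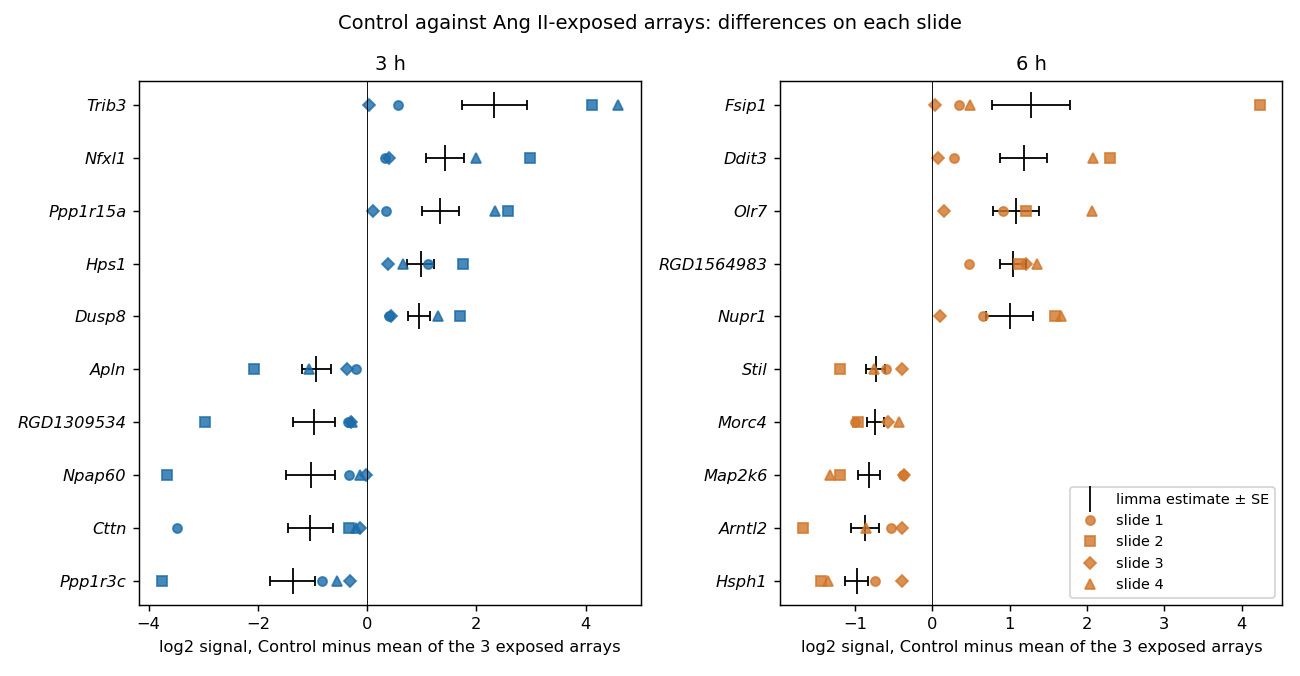
Log2 signal of the Control array minus the mean of the 3 exposed arrays of the same slide (x axis) for the named genes (y axis), with 1 marker per slide and a panel per time. For Trib3 and Ppp1r15a at 3 h, markers spread from near 0 to over 2.5, and for Hsph1 at 6 h all 4 lie below 0.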

How the data were processed

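RNA from C6 cells was measured on 32 Agilent arrays. Per the file headers, the authors deposited background-subtracted spot intensity from Feature Extraction 9.5.3.1 with its flags, on rn4 annotation, not normalized between arrays, together with a table of log2 values of the same signals, which holds blanks. Here the log2 of the processed intensity was normalized by cyclic loess among the 16 arrays of a time (span 0.7, 3 iterations), and spots of 1 probe were averaged after removing outlier flags. For spots at 3 h not flagged as positive and significant, the error estimate of the software stood in for the intensity. Probes were kept if some group had them well above background in its 4 replicates, kept probes were averaged per gene, and limma 3.58.1 in R 4.3.3 compared Control with the mean of the 3 exposed groups, with the replicate number (slide) as a block and Benjamini-Hochberg adjustment over all genes. Deviations from group means correlated at 0.144 to 0.870 between Control and exposed arrays of a slide at 3 h and at 0.550 to 0.747 at 6 h. Between slides the range was -0.721 to 0.115 at 3 h and -0.632 to 0.129 at 6 h. The replicate number therefore marks arrays that vary together. Whether this comes from the culture, the RNA or the shared slide was not tested. Percentiles were taken over all transcript probes of an array. On simulated data, 41% of changes of 0.5 log2 units and 87% of 1 were recovered at 3 h (13400 genes), and 70% and 96% at 6 h (16380 genes). The simulation added the same change on every slide, with independent noise per gene. It does not give the recovery of differences confined to some slides, such as those of Ddit3. Of the gene names, 17569 matched a current symbol in RefSeq. A gene with several probes took the mean of its probes detected on every Control array with a value, otherwise the brightest. Genes were named by list membership, by the 20 highest percentiles, by the 10 widest spreads and by the 5 largest differences in each direction. Apart from the lists, only genes with a current symbol were ranked. The members and the lists were chosen with earlier results of these data known. The number of arrays limits the precision. Other detection flags, probe rules, normalizations, background corrections and filters, the deposited log2 table, the fit without the block and the omission of each replicate were tried as alternatives. A few genes of the lists are not reported here.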

Additional observations from a re-analysis of the deposited data

Results flagged for a closer look

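The check covered 186 groups of 4 values, from the Control arrays or from Control minus exposed on each slide. Of these, 25 held an array far from the other 3 by Dixon's criterion, and 1 gene differed in direction between the times. Chance gives such an array in about 1 group in 20 where groups are independent. These groups shared arrays and included genes named for wide spread or large differences, so the count cannot be read against that rate. Replicate 1 at 3 h was the low array for Ddit3 (10.25), Trib3 (6.62), Nupr1 (8.51), Asns (10.64), Atf4 (12.77), Sdf2l1 (9.83), Herpud1 (9.75) and Ifi27l2b (9.77), in log2 signal, and for the list medians of integrated stress (-1.83) and ER chaperones (-1.82). The same array was the high one for Sox9 (7.02) and Ace (6.16).

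Replicate 3 at 3 h was low for Pdgfra (9.94). At 6 h replicate 1 was low for Scd1 (5.88), Insig1 (8.26) and the extracellular matrix list median (-0.39), replicate 2 for S100a4 (15.70) and Ldha (15.60), and replicate 3 for the interferon response list median (-0.28). The median spike-in CV at 6 h was highest in replicate 2, at 8.79%.

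Among differences between Control and the exposed arrays of a slide, replicate 2 at 3 h stood apart for Npap60 (-3.66), Ppp1r3c (-3.75) and RGD1309534 (-2.96), replicate 1 at 3 h for Cttn (-3.48), and replicate 2 at 6 h for Fsip1 (4.23). Npap60 was lower in Control on every slide at 3 h (mean difference -1.03) and higher on every slide at 6 h (0.15), and the difference between the times was not tested.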

How the results depend on the processing

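The count of expressed genes (12847) stayed between 10435 (a value in the deposited table on all 8 arrays) and 16983 (above the negative controls, chosen after seeing the data), and was 12620 with no missing array allowed, also chosen after seeing the data. The median percentile of expressed genes was 76.1, and 77.3 with the brightest probe or 76.2 with normexp background. The median SD at 6 h was 0.27, and 0.19 with normexp background. At 3 h the count of calls ranged from 0 to 1 when a replicate was left out, with 1 called without replicate 3, and 0 under every other alternative run. Without the replicate block it was 0 at 3 h (377 genes at an unadjusted p under 0.05) and 0 at 6 h (1245 unadjusted). At 6 h 1380 genes were called, 83 with no filter, and between 0 and 1968 when a replicate was left out. The causes were not tested. For single named genes, 328 results under alternatives kept direction and side of the threshold, 71 lost the call, 6 gained it and 0 reversed. No gene was called at 3 h in the main fit, so a call could be lost only at 6 h. The kept results include those of the genes named at 3 h, and the pooled count does not measure the stability of the 6 h calls. Signal near background limits the calls of dim genes, and the different flag settings leave the 2 times without a common measure of detection.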
